A study of Mus musculus with 2 samples.

Results

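The miR-148 and miR-152 family of the mouse consists of 3 miRNA genes, Mir148a, Mir148b and Mir152, out of 2202 miRNA genes counted in adrenal gland tissue. The genes were chosen by their GENCODE M21 names, with the counts of these same libraries already known, so every level and ratio given for them is a description and carries no test. The tissue came from 4-day-old female mice of the hybrid strain B6CASTF1/J, a first-generation cross of C57BL/6J and CAST/EiJ. A single group was sequenced, with 2 libraries labelled as biological replicates 1 and 2. The labels name 2 numbered females but give 1 donor identifier for both libraries, so the labels are the only ground for reading the spread between libraries as one between animals. With 1 library per labelled female and 1 group, the difference between the libraries has no replicate check.

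MiRNAs are short RNAs that guide Argonaute proteins to messenger RNAs, mostly by pairing of the seed, bases 2 to 8 of the mature strand. Genes with the same seed share predicted targets and are grouped as a family. Members of the miR-148 and miR-152 family are known to act on DNMT1, the maintenance DNA methyltransferase, and on the transplantation antigen HLA-G in human cells. In mouse liver, miR-148a is known to act on the low-density lipoprotein receptor and on the cholesterol exporter ABCA1. The adrenal cortex makes its steroid hormones from cholesterol, much of it taken up from lipoproteins.

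The mature 3p strands are shown because they carry the family's seed, which is in capitals (RefSeq, GRCm38.p6, 5′ to 3′, U for uracil).

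miR-148a-3p: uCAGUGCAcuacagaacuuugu

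miR-148b-3p: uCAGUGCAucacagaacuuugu

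miR-152-3p: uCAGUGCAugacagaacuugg

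Outside the seed these strands are also nearly the same. Counted from 1 at the 5′ end, miR-148b-3p differs from miR-148a-3p by C9U and U10C, and 20 of 22 bases match. From miR-148a-3p, miR-152-3p differs by C9U, U10G and U20G, with 18 of 21 compared bases matching. From miR-148b-3p it differs by C10G and U20G, with 19 of 21 matching. All substitutions thus fall at positions 9, 10 and 20, just after the seed or near the 3′ end.

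The opposite 5p strands, shown to set this likeness against the other arm of the hairpin, are less alike. They are in lower case throughout, since the shared seed does not occur in them.

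miR-148a-5p: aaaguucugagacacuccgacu

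miR-148b-5p: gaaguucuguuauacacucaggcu

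miR-152-5p: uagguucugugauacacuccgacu

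At the best ungapped placement, miR-148a-5p matched miR-148b-5p at 13 of 22 bases and miR-152-5p at 15 of 22, and miR-148b-5p matched miR-152-5p at 19 of 24. The 5p strands therefore differed at 5 to 9 bases a pair, and the 3p strands at 2 or 3.

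The whole hairpins are shown because the deposited counts are per hairpin gene, with the 3p strand in capitals and all other bases, the 5p strand among them, in lower case.

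Mir148a: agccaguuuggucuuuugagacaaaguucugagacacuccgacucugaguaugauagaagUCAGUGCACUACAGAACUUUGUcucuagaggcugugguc

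Mir148b: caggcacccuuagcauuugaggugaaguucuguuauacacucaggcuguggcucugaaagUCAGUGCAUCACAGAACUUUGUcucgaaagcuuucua

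Mir152: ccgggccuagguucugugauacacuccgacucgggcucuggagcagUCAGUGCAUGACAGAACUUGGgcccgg

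The longest run of bases shared by any pair of these hairpins was 15, between Mir148a and Mir148b. It was 12 between Mir148a and Mir152, and 11 between Mir148b and Mir152. None of the 3 hairpins shared a run of 18 bases with any miRNA hairpin elsewhere, whereas 1135 of the 2202 hairpins did. The counts leave out reads with several mapping places. By this measure the family's genes can be told apart from each other and from other miRNA hairpins by full-length reads. Reads cut down to the bases that the 3 genes share cannot be placed. The rest of the genome was not searched for such runs. The tables do not separate the arms, so a count may hold reads of the 3p and of the 5p strand.

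Among 1738 mature mouse miRNAs in RefSeq, the 7 letters CAGUGCA stood at bases 2 to 8 in 3, which are the 3p strands of the family (0.173%). The same 7 letters stood at bases 1 to 7 in 7 others (0.403%), including miR-130a-3p, miR-130b-3p and miR-301a-3p of the miR-130 and miR-301 family. They stood anywhere in the sequence in 17 (0.978%). The strand of miR-130a is shown for this shift by 1 base, with the shared letters in capitals.

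miR-130a-3p: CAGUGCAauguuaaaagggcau

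The family was a minor part of the adrenal miRNA pool, and its genes kept the same order in both libraries, with Mir148a first, Mir152 next and Mir148b last. The miRNA genes received 4960537 reads in replicate 1 and 4506482 in replicate 2. The 3 genes together took 8649 of these reads in replicate 1 and 2679 in replicate 2. In replicate 1 their share of miRNA reads was 0.174%, with a 95% Wilson interval of 0.171 to 0.178. In replicate 2 it was 0.0594% (0.0572 to 0.0617), which gives a mean of 0.117% ± 0.0813 (SD, n = 2). All intervals cover counting error only, with each read taken as an independent draw from its library. PCR copies of a molecule cannot be recognised without molecular identifiers, so the intervals may be too narrow.

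Mir148a (ENSMUSG00000065505.1) lies on the minus strand of chromosome 6 (51269812 to 51269910, mm10), outside any protein-coding gene on its strand. It had 4560 reads in replicate 1 and 1764 in replicate 2. Scaled to 1000000 miRNA reads (CPM), its level was 919 (95% Wilson limits 893 and 946) in replicate 1 and 391 (374 to 410) in replicate 2, a mean of 655 CPM ± 373 (SD, n = 2). Replicate 1 was the higher library, and these intervals do not overlap. The gene ranked 99 in replicate 1 and 127 in replicate 2 among the 377 miRNA genes with at least 10 reads in both libraries, called detected here. The hairpins of 96 of these 377 genes share runs with others. Their counts may be too low, so all ranks given here are uncertain.

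Mir152 (ENSMUSG00000065515.1) lies within an intron of Copz2, on chromosome 11 (96850393 to 96850465, plus strand). It had 3149 reads in replicate 1 and 538 in replicate 2. Its level was 635 CPM (613 to 657) in replicate 1 and 119 CPM (110 to 130) in replicate 2, a mean of 377 ± 364 (SD, n = 2). The SD is nearly as large as the mean, and replicate 1 holds most of the reads. Its rank was 113 in replicate 1 and 186 in replicate 2.

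Mir148b (ENSMUSG00000065560.1) lies within an intron of Copz1, on chromosome 15 (103285125 to 103285221, plus strand). It had 940 reads in replicate 1 and 377 in replicate 2. Its level was 189 CPM (178 to 202) in replicate 1 and 83.7 CPM (75.6 to 92.5) in replicate 2, a mean of 137 ± 74.8 (SD, n = 2). The gene ranked 178 and 209, close to the middle of the detected genes, whose median level was 151 CPM in replicate 1 and 109 CPM in replicate 2. On the strand opposite to the gene, Mir152 had 1 read in each library, and Mir148a and Mir148b had 0.

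**Figure D1:**
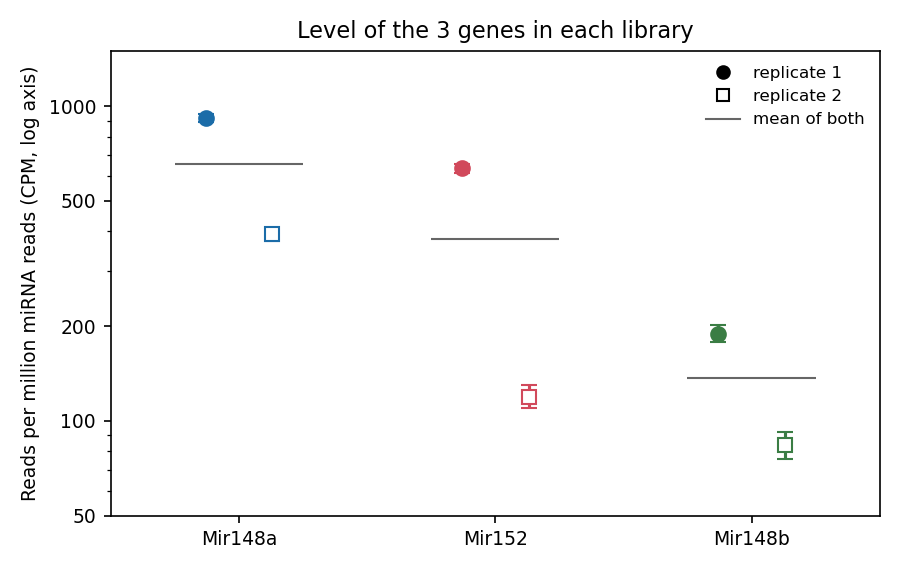
Level of Mir148a, Mir152 and Mir148b in each library, in CPM on a log axis. Circles stand for replicate 1, squares for replicate 2, bars for 95% Wilson intervals and lines for the mean of both. Replicate 1 is the higher library for all 3 genes, and the gap is widest for Mir152 (635 and 119 CPM).

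The order held within each library but not across the spread between them. Ranges over the 2 libraries overlapped for the neighbours Mir148a (391 to 919 CPM) and Mir152 (119 to 635 CPM), and likewise for Mir152 and Mir148b (83.7 to 189 CPM). They did not overlap for Mir148a and Mir148b. The hairpins are 99, 73 and 97 bases long for Mir148a, Mir152 and Mir148b. Per 100 hairpin bases, the level of Mir148a was 929 CPM in replicate 1 and 395 CPM in replicate 2. That of Mir152 was 870 and 164 CPM, and that of Mir148b 195 and 86.2 CPM, in the same order. Reads of short mature strands need not grow in number with hairpin length, so these values are no check on the order. Mature strands of different sequence can enter a library with unequal efficiency, and the part of this in the order was not tested.

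**Figure D2:**
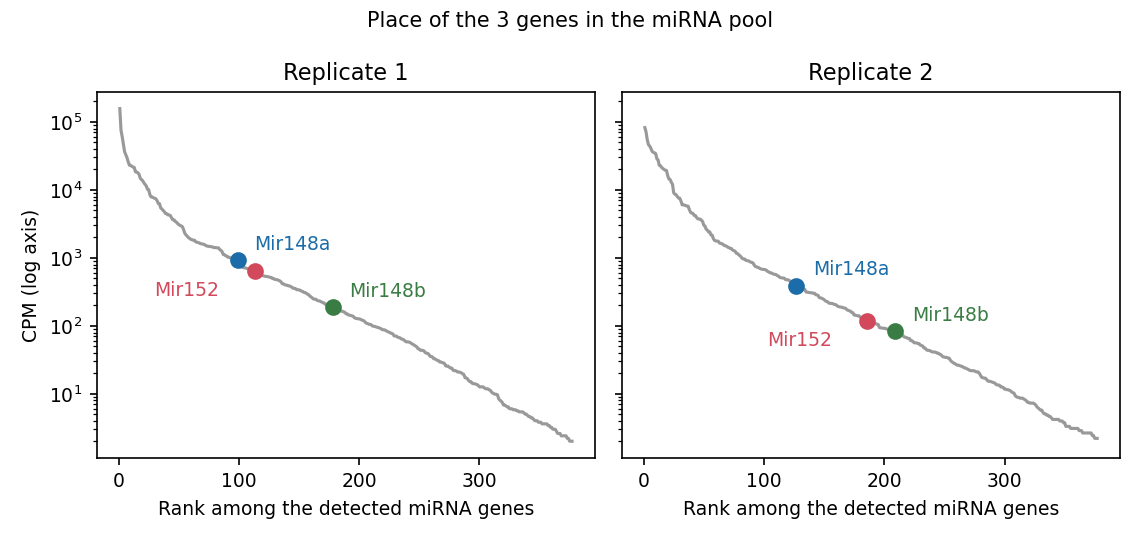
Level of each of the 377 detected miRNA genes (CPM, log axis) against its rank, in replicate 1 on the left and replicate 2 on the right. The points mark the family, which lies between ranks 99 and 178 in replicate 1 and between ranks 127 and 209 in replicate 2.

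Mir148a and Mir148b held a steady proportion to each other, whereas Mir152 took a larger part of the family in replicate 1. There were 4.85 Mir148a reads for each Mir148b read in replicate 1 (95% exact interval 4.52 to 5.21) and 4.68 in replicate 2 (4.18 to 5.24). The first interval lies within the second. Of Mir148a reads there were 1.45 for each Mir152 read in replicate 1 (1.38 to 1.52) and 3.28 in replicate 2 (2.98 to 3.62). Of Mir152 reads there were 3.35 for each Mir148b read in replicate 1 (3.11 to 3.61) and 1.43 in replicate 2 (1.25 to 1.63). Both proportions that involve Mir152 thus have separate intervals in the 2 libraries. These proportions do not depend on the scaling of the libraries.

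As shares of the family's reads, Mir148a made up 52.7% (95% Wilson limits 51.7 and 53.8) in replicate 1 and 65.8% (64.0 to 67.6) in replicate 2. Mir152 made up 36.4% (35.4 to 37.4) and 20.1% (18.6 to 21.6). Mir148b made up 10.9% (10.2 to 11.5) and 14.1% (12.8 to 15.4). Mir148a was the major member in both libraries.

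**Figure D3:**
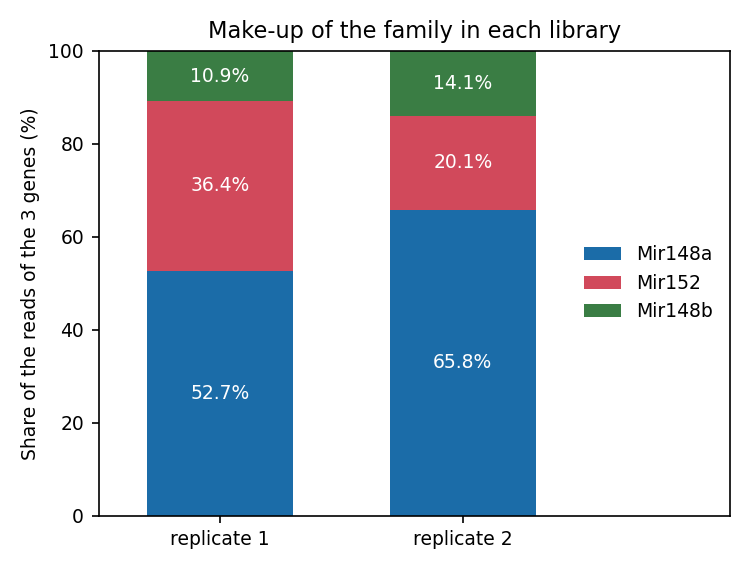
Share of the reads of the 3 genes held by each gene, in percent, for replicate 1 on the left and replicate 2 on the right. Mir152 makes up 36.4% in replicate 1 and 20.1% in replicate 2, while Mir148a and Mir148b keep nearly the same proportion to each other.

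For ratios between the libraries, reads were scaled by TMM, which aligns the bulk of the genes. On the log2 scale these ratios are 0.13 below those of the CPM values. Mir152 was 4.86-fold higher in replicate 1 (95% exact interval 4.43 to 5.33, log2 ratio 2.28). Mir148a was 2.14-fold higher (2.03 to 2.27, log2 ratio 1.10), and Mir148b 2.07-fold higher (1.83 to 2.34, log2 ratio 1.05). The reads of the family together were 2.68-fold higher in replicate 1 (2.56 to 2.80).

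All 3 genes were thus at least 2-fold higher in replicate 1, a ratio reached by 45 of the 377 detected genes (11.9%). A further 24 genes (6.37%) were at least 2-fold lower in replicate 1, and 69 (18.3%) passed 2-fold in either direction. The interval of Mir148b includes ratios under 2-fold. The median log2 ratio of the 3 genes was 1.10, beside -0.04 over all detected genes, whose ratios had an SD of 0.97. Of the detected genes, 12 had a higher ratio than Mir152, 39 than Mir148a and 43 than Mir148b. The intervals of Mir148a and Mir148b overlap, and that of Mir152 lies above both. In bulk tissue, fewer cells of a type and less RNA per cell cannot be told apart.

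**Figure D4:**
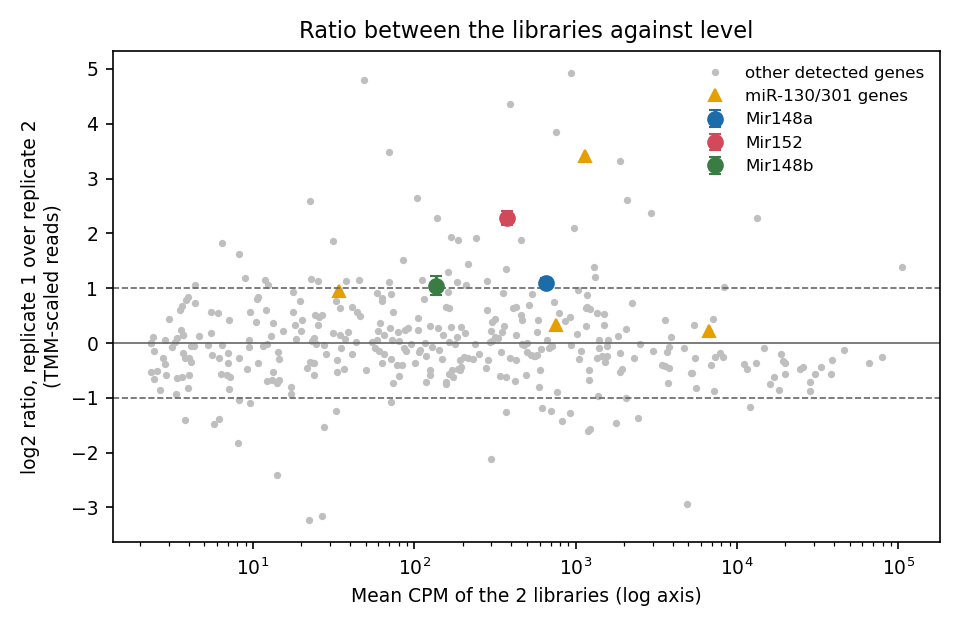
Log2 ratio of replicate 1 over replicate 2 (TMM-scaled reads) against mean CPM on a log axis, 1 point per detected gene. Bars on the family's points are 95% exact intervals, dashed lines mark 2-fold, and Mir152 stands at 2.28 with Mir148a and Mir148b at 1.10 and 1.05.

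MiRNAs known as markers of particular cell types also differed between the libraries. Over all 377 detected genes, 11.9% were at least 2-fold higher in replicate 1 and 6.37% at least 2-fold lower. The 5 miR-200 family genes of epithelial cells summed to 4224 CPM in replicate 1 and 192 CPM in replicate 2, with all 5 at least 2-fold higher in replicate 1. The 3 erythroid genes summed to 1059 and 287 CPM, with 2 of 3 past 2-fold and Mir486 lower in replicate 1 (0.670-fold). The 3 kidney genes summed to 231 and 39.9 CPM, with 2 past 2-fold and Mir194-1 at 0 and 4 reads. The endothelial genes Mir126a and Mir126b summed to 156836 and 54711 CPM. Striated muscle genes went the other way, at 1249 and 8685 CPM, with 3 of 4 at least 2-fold lower in replicate 1. Leukocyte genes (1151 and 1475 CPM), neuroendocrine genes (40218 and 45617 CPM) and the liver gene Mir122 (1449 and 2638 CPM) had lower sums in replicate 1. So did the mesenchymal and smooth muscle genes (30183 and 37498 CPM), with 1 gene past 2-fold in each direction. Most of the neuroendocrine sum was Mir375 (36380 and 41025 CPM), whereas Mir7-1 and Mir7-2 were each 1.15-fold higher in replicate 1. The pancreas genes, of interest because miR-148a is abundant in that organ, were near absent, with 8 and 12 reads in all and 2 of 3 genes at 0. Among these marker genes, the hairpins of Mir194-1, Mir194-2, Mir7-1, Mir7-2, Mir133b, Mir199a-1 and Mir199a-2 share runs with others, so their counts are uncertain. The part of these cell types in the family's difference was not tested.

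Mir148b and Mir152 share a place within paralogous hosts. Copz1 and Copz2 encode alternative zeta subunits of COPI, the coat of vesicles that travel from the Golgi to the endoplasmic reticulum. Each miRNA lies in intron 1 of its host, on the host's strand, and overlaps no annotated exon of it. The intron around Mir148b is 16159 bases long, with the hairpin 12183 bases after the upstream exon and 3879 bases before the next. That around Mir152 is 676 bases long, with the hairpin 396 and 207 bases from its exons. An intronic place on the strand of a protein-coding host was held by 134 of the 377 detected genes (35.5%) and by 737 of all 2202 genes (33.5%). Of those 134, 13 (9.70%) were at least 2-fold higher in replicate 1, as Mir152 and Mir148b were. The share over all detected genes was 11.9%. The host transcripts were not measured in these small RNA libraries.

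All 3 genes lie on the flank of a Hox cluster, with genes of the same families in between. Hoxa2 lies 892507 bases from Mir148a, Hoxb1 482137 from Mir152 and Hoxc4 248273 from Mir148b. Only chosen Hox, Copz, Nfe2, Hnrnpa, Cbx and miRNA genes were searched, so other genes may lie between those named. Going from the miRNA towards the Hox genes, Mir148a is followed by Nfe2l3 at 162760 bases, Hnrnpa2b1 at 191022 and Cbx3 at 200450. Mir148b is followed by Nfe2 at 26722 bases, Hnrnpa1 at 38433 and Cbx5 at 45309. Mir152 is followed by Nfe2l1 at 20425 bases and Cbx1 at 41753, with no Hnrnpa gene among those searched within 1.5 Mb. The order of the families present is the same at each locus. Nfe2 family genes encode bZIP transcription factors, Cbx1, Cbx3 and Cbx5 encode the heterochromatin protein HP1 forms, and the Hnrnpa genes encode RNA-binding proteins. Around Mir10b in the HoxD cluster, Hnrnpa3 and Nfe2l2 lie 933124 and 949376 bases away, and no gene of the miR-148 and miR-152 family is annotated there.

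**Figure D5:**
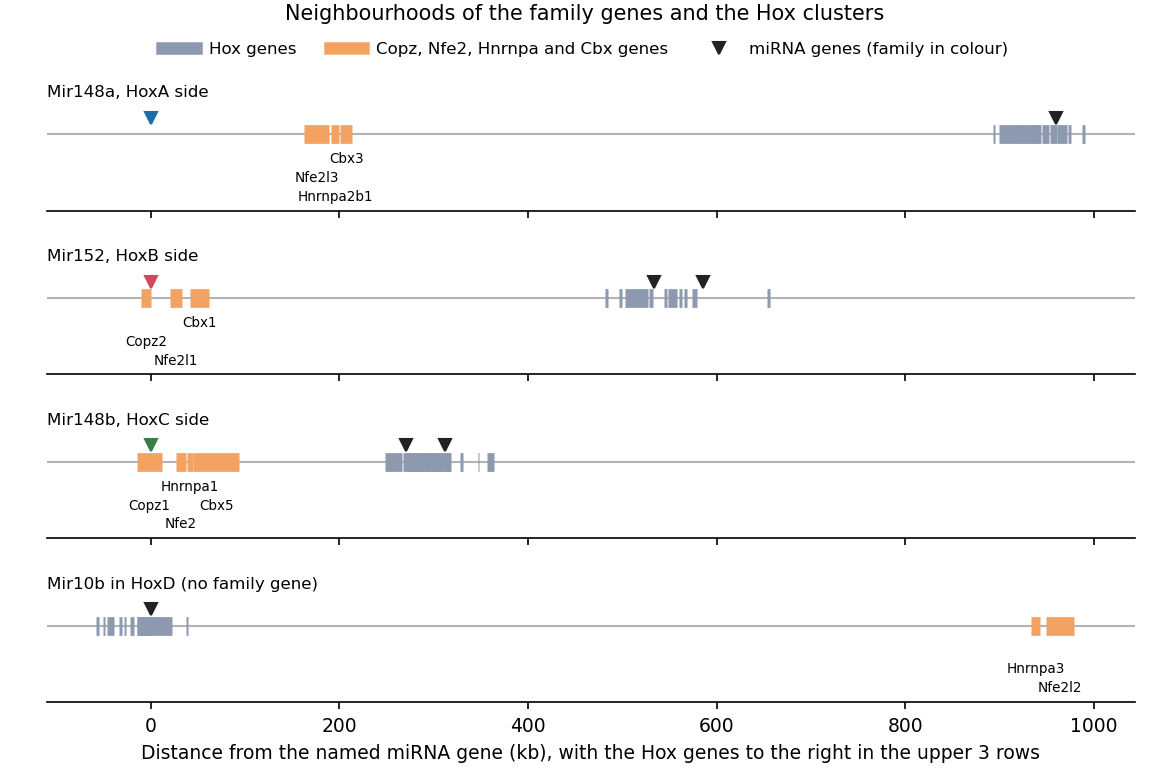
Distance in kb from the named miRNA gene to Hox genes (grey), to Copz, Nfe2, Hnrnpa and Cbx genes (orange) and to other miRNA genes (triangles), 1 row per locus. The rows of Mir152 and Mir148b are turned so that the Hox genes lie to the right. The family genes at the left of the upper 3 rows have Nfe2 and Cbx genes between them and the Hox genes, and the HoxD row has no family gene.

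None of the 3 is part of a miRNA cluster. The nearest annotated miRNA gene lies 351722 bases from Mir148a, 65234 from Mir148b and 213303 from Mir152. The miRNAs inside the Hox clusters had ratios from 0.548-fold for Mir10b (21414 CPM in replicate 1 and 35684 in replicate 2) to 2.30-fold for Mir196b (1875 and 746 CPM). Mir10a, on the same chromosome as Mir152 at a distance of 533119 bases, stood at 46382 and 46314 CPM in replicates 1 and 2, nearly level where Mir152 was not. Mir615, at 270124 bases from Mir148b, had 1332 CPM in replicate 1 and 980 in replicate 2. Of the 6 Hox cluster genes, 1 (Mir196b) was at least 2-fold higher in replicate 1 and none was 2-fold lower, with a median log2 ratio of 0.17. Over all 377 detected genes, 11.9% were at least 2-fold higher and 6.37% at least 2-fold lower. The hairpins of Mir196a-1 and Mir196a-2 share runs with others, so their counts are uncertain.

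The genes most like each member were sought by the distance between log2(CPM + 1) values over the 2 libraries. Nearest to Mir148a were Mir101b (distance 0.39, 717 CPM in replicate 1 and 353 in replicate 2), Mir425 (0.41) and Mir136 (0.49). Nearest to Mir148b were Mir339 (0.33, 237 and 88.5 CPM), Mir3072 (0.34) and Mir183 (0.39). Mir152 had no gene as close. Its nearest were the erythroid Mir451a (0.66, 738 and 184 CPM), Mir25 (0.74, 549 and 196 CPM) of the Mcm7 cluster and the hypoxia-induced Mir210 (0.79, 388 and 93.4 CPM). Over 2 libraries this likeness reflects level and ratio alone. The hairpin of Mir101b shares a run with another, so its count is uncertain.

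The miR-130 and miR-301 family had a higher summed level in both libraries. The same 7 letters, shifted by 1 base, stood in the RefSeq mature strands of Mir130a, Mir130b, Mir130c, Mir301 and Mir721, and the 3p strand of Mir301b was not analysed here. The 6 genes summed to 10548 CPM in replicate 1 and 6727 CPM in replicate 2. Mir130a led with 7539 CPM in replicate 1 and 5892 in replicate 2, and Mir130b had 871 and 632 CPM, ratios of 1.17-fold and 1.26-fold. Mir301, in an intron of Ska2, had 2092 and 180 CPM and was 10.6-fold higher in replicate 1. Mir301b had 46.2 and 21.7 CPM, a ratio of 1.94-fold. Mir130c and Mir721 had 0 reads in both libraries. Of the 4 detected genes, 1 passed 2-fold, beside 18.3% of all 377 detected genes in either direction. The median log2 ratio of the 4 was 0.64, and the difference between the families was not tested.

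MiRNAs with roles close to those known for the family were spread on both sides of an even ratio. Of 18 miRNA genes known to act on cholesterol uptake or efflux, Mir148a left aside, 17 were detected. Of these 17, 4 were at least 2-fold higher in replicate 1 and 1 was at least 2-fold lower, with a median log2 ratio of 0.21. Over all 377 detected genes these shares were 11.9% and 6.37%. Mir106b, which acts on ABCA1, had 1606 CPM in replicate 1 and 343 in replicate 2 (4.28-fold). Mir125a, known to act on the HDL receptor SR-BI in steroid-producing cells, had 11436 and 5124 CPM (2.04-fold). Mir144 (3.66-fold) and Mir96 (3.07-fold) also passed 2-fold. Mir128-2 was 2.88-fold higher in replicate 2, and Mir128-1 was 1.11-fold higher there. Mir122, Mir130b, Mir144, Mir223 and Mir301b are also in lists described above, so the lists are not independent. Mir33, which lies in the cholesterol regulator Srebf2 and acts on ABCA1, had 32.9 and 21.1 CPM (1.42-fold). The hairpins of 6 of the 18 genes share runs with others, those of Mir128-2, Mir27a and Mir27b among them.

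The miR-29 genes act on the de novo DNA methyltransferases, as the miR-148 and miR-152 family does on DNMT1. Mir29a had 1579 CPM in replicate 1 and 781 in replicate 2 (1.85-fold), and Mir29c had 293 and 128 CPM (2.09-fold). Mir29b-1 (25.6 and 13.8 CPM) and Mir29b-2 (4.03 and 3.33 CPM) were low. The median log2 ratio of the 4 genes was 0.82, and 1 of them passed 2-fold, beside 18.3% of all 377 detected genes in either direction. The hairpins of Mir29b-1, Mir29b-2 and Mir29c share runs with others, so their counts are uncertain.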

How the data were processed

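Small RNA libraries of adrenal tissue from 2 replicates were used. The counts used are raw reads per miRNA gene as deposited, 1 table a library. The assembly is mm10, and GENCODE M21 was the annotation used here to name and place the genes. The aligner and counter were not given in the sources used here. The tables have no column names, and the column for reads on the annotated strand was identified from its values. Rows that name no gene stayed out of totals. They made up 25.8% and 26.1% unmapped, 25.9% and 27.8% multimapping and 5.96% and 6.24% unassigned reads of 11704395 and 11288855 in replicates 1 and 2. All 2202 identifiers were found in GENCODE M21.

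CPM used reads assigned to miRNA genes. Ratios used edgeR 4.0.16 TMM factors (1.05 and 0.956), with DESeq2 1.42.0 size factors as an alternative, and the calculation was tested on simulated data. With 1 group and 1 library per labelled female no test was run. Wilson and exact binomial intervals came from SciPy 1.17.1. Sequences came from RefSeq (GRCm38.p6), matched by symbol for all 3 genes, whose hairpins equal those of GENCODE M21. Named genes were the members, the 3 detected genes nearest to each, and fixed lists of related miRNAs. The genes and lists were chosen with earlier results of these data known. One gene of the search around the family is not reported here.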

Additional observations from a re-analysis of the deposited data

How the results depend on the processing

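Each member stayed higher in replicate 1 under all 4 settings tried (TMM, total reads, DESeq2 size factors, reads on either strand). The folds ran from 2.14 to 2.35 for Mir148a, from 2.07 to 2.27 for Mir148b and from 4.86 to 5.32 for Mir152. With all reads of the table as the total, each mean was lower by construction of the larger total, at 273 CPM for Mir148a, 158 CPM for Mir152, 56.9 CPM for Mir148b and 0.0488% for the family share. With the either-strand column, or a total without hairpins that share runs, the means were higher, and the family share was 0.143% and 0.169%. Both settings have smaller totals. In the either-strand column Mir126a, which Mir126b overlaps on the opposite strand, had 11 and 5 reads in replicates 1 and 2. On its annotated strand Mir126a had 777971 and 246547 reads, so nearly all of its reads are missing from the either-strand column. The either-strand totals were 3942397 and 4009427 in replicates 1 and 2. Leaving out a library moved every level. Without replicate 1 the level was 391 CPM for Mir148a, 119 CPM for Mir152 and 83.7 CPM for Mir148b, and the family share was 0.0594%. Without replicate 2 these values were 919, 635 and 189 CPM and 0.174%. With a minimum of 1 read in both libraries, 179 of 649 genes (27.6%) reached 2-fold. Under the other settings the count ran from 47 of 266 genes (17.7%) to 75 of 377 (19.9%). No paired analysis was possible because the series holds 1 group. Depth limits Mir148b most, with 377 reads in replicate 2.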
